A study of Mus musculus with 7 samples.

Results

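The genes described here are 47 members of the Hippo pathway and of the STRIPAK complex that surround the protein kinase MST3, which is encoded by Stk24. They were listed by name for their known role, with earlier results of these data known, and all 47 were found once among the 46671 genes of the table. The samples are RNA from intestinal epithelium of 8-week-old BALB/C mice, labelled as colorectum. The control group (Ctrl, 3 libraries) is labelled WT, and the other group (cKO, 4 libraries) carries a knockout of MST3 in intestinal epithelial cells. The treatment label of both groups states that no drug was given, whereas the design text names treatment with AOM and DSS, a carcinogen and a colitis-inducing agent; the labels do not settle which holds. Neither the promoter that drove the deletion nor the deleted exons are given in the labels. The labels do not state how many mice stand behind the libraries of a group, so the p-values reflect only how these libraries vary.

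In the Hippo pathway the kinases MST1 and MST2 (encoded by Stk4 and Stk3), with their scaffold SAV1, activate the kinases LATS1 and LATS2 together with MOB1. LATS kinases phosphorylate the co-activators YAP and TAZ and keep them out of the nucleus, where they would otherwise act with TEAD transcription factors on genes of growth and repair. STRIPAK is an assembly of striatins, adaptors and the phosphatase PP2A that can remove phosphate from MST1 and MST2, and it also holds the GCKIII kinases MST3, MST4 and STK25, to which it is joined by the adaptor CCM3 (Pdcd10). In the intestine this network is best known for control of crypt regeneration after injury and of tumour growth.

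The libraries held between 14659708 and 19659622 recovered reads. Marker genes of epithelium summed to between 5880.0 and 8635 FPKM in each library. Of 10 small-intestinal markers all passed the level for testing, with sums of 25204 to 51715 FPKM, while of 8 colon markers 5 did and Car1, Aqp8 and Hoxb13 did not, with sums of 110 to 167 FPKM, so the regional markers went against the labelled tissue. Of 8 fibroblast markers only Dcn reached the level for testing (sums of 1.51 to 7.72 FPKM in Ctrl and 0.912 to 8.79 FPKM in cKO), and of 6 smooth muscle markers none did. Of 10 markers of T cells and innate lymphoid cells, 9 could be tested. The sums of all 10 were 426 to 1049 FPKM in Ctrl and 275 to 663 FPKM in cKO, highest in Ctrl replicate 1. Each of the 9 had a log2 difference (cKO minus Ctrl) below 0, with a median of -0.51, and limma adjusted p of at least 0.617. The 5 tested myeloid markers were also below 0, while of 5 tested B and plasma cell markers 4 were above 0 and 1 below. In such bulk RNA, fewer cells of a type and less RNA per cell cannot be told apart.

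Stk24 was the only member that changed with the genotype at the threshold of the test. Of the 47 members, 42 reached a mean of 0.5 FPKM and were tested in limma; over all 13057 genes tested, 4 passed (0.0306%), all lower in cKO. The other 41 tested members had adjusted p between 0.475 and 0.996, and their log2 differences lay between -0.21 and 0.46. Their 95% intervals were narrow enough to lie within 1 log2 unit on either side of 0 for 40 of the 41, the exception being Strip2, and within 0.5 for 17. At an unadjusted p under 0.05 there were 8 members higher in cKO, or 19.0% of those tested, where the share over all genes tested was 4.24%. These 8 were Mob1b, Mob1a, Strn3, Map4k3, Lats1, Stk3, Slmap and Taok1. In the other direction only Stk24 was below that p, beside 4.73% of all genes. In all, 29 of the 42 tested members had a log2 difference above 0, against 48.7% of all genes, and the median difference was 0.15 over the members and -0.0077 over all genes. The difference of each tested member with its interval is drawn by role below.

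**Figure D1:**
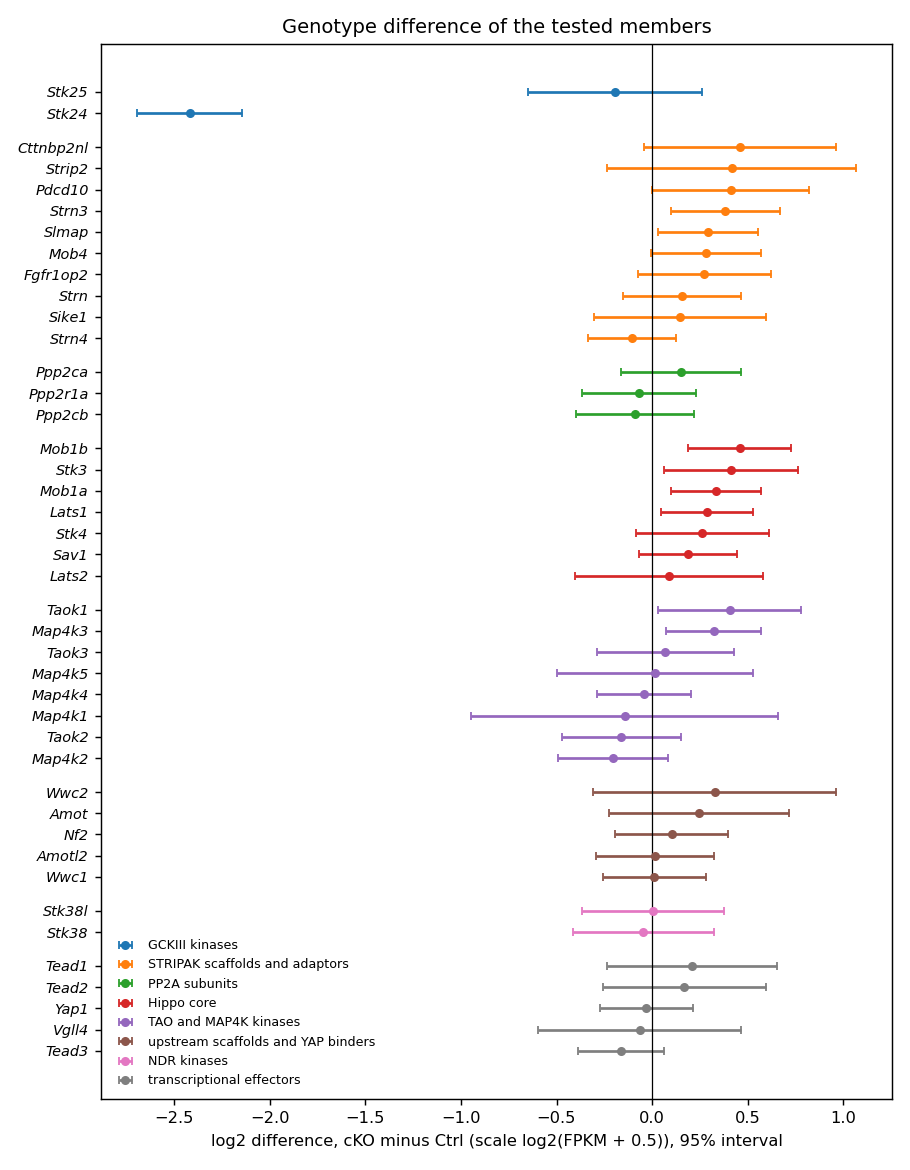
Log2 difference (cKO minus Ctrl, on the scale log2(FPKM + 0.5)) of the 42 tested members, grouped by role, with the 95% interval of the limma fit. Stk24 stands at -2.42, and the intervals of 8 other members, all above 0, do not reach 0.

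The count of higher members moved with the processing. It was 13 after rescaling to TPM (6.86% of all genes), 5 once the length dependence of every library was taken out (4.13%, beside 1 lower and 3.64%), 4 without Ctrl replicate 1 (2.51%) and 5 without cKO replicate 2 (2.96%). Over all genes, 553 were higher and 618 lower at that p, but 896 and 315 after rescaling to TPM and 774 and 526 after quantile normalization.

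The GCKIII kinases are the subfamily of MST3, and Stk25 was its most abundant transcript in every library. Stk24 (gene ID 223255, chromosome 14, 121521599 to 121618269 on the minus strand of GRCm39) stood at 19.4, 19.4 and 21.0 FPKM in Ctrl replicates 1 to 3 and at 2.92, 3.04, 3.85 and 3.53 FPKM in cKO replicates 1 to 4. The groups did not overlap, and within each group the libraries lay close together. Stk24 fell in cKO (log2 difference -2.42, SE 0.12, 95% interval -2.69 to -2.15, limma adjusted p = 0.000427), to a mean equal to 16.7% of that in Ctrl. The exact permutation test gave p = 0.0571, the smallest 2-sided value that 3 against 4 libraries allow.

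Stk25 encodes the paralog STK25, a Golgi-associated kinase. It stood at 42.98, 50.4 and 74.01 FPKM in Ctrl replicates 1 to 3 and at 39.9, 46.5, 49.98 and 54.8 FPKM in cKO replicates 1 to 4. The Ctrl libraries spread more widely than the cKO libraries, Ctrl replicate 3 lay above all others, and the groups overlapped (log2 difference -0.19, SE 0.20, 95% interval -0.65 to 0.26, limma adjusted p = 0.794). Without Ctrl replicate 3 the log2 difference was 0.028, so the direction rested on that library. Stk26, which encodes MST4, was near the limit of detection, with between 13 and 42 reads per library. It stood at 0.612, 0.472 and 0.472 FPKM in Ctrl replicates 1 to 3 and at 0.287, 0.621, 0.253 and 0.407 FPKM in cKO replicates 1 to 4, with overlapping groups (exact permutation p = 0.286).

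Summed over the 3 kinases, Stk24 made up 30.8, 27.6 and 22.0% of the FPKM in Ctrl and 6.77, 6.07, 7.12 and 6.02% in cKO. The share fell by 20.3 percentage points between the means, without overlap of the groups (exact permutation p = 0.0571, the smallest possible). Stk25 and Stk26 together had means of 56.3 ± 16.1 FPKM (Ctrl, SD, n = 3) and 48.2 ± 6.27 FPKM (cKO, SD, n = 4). The groups overlapped for this sum (exact permutation p = 0.514). The total of the 3 was 76.2 ± 17.1 and 51.5 ± 6.60 FPKM. Of the 50-base stretches in transcripts of Stk25, 25.0% also occur, on either strand, in transcripts of other genes, chiefly Farp2. Opposite-strand matches would blur the assignment of its reads only if counting ignored strand, which is not known.

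**Figure D2:**
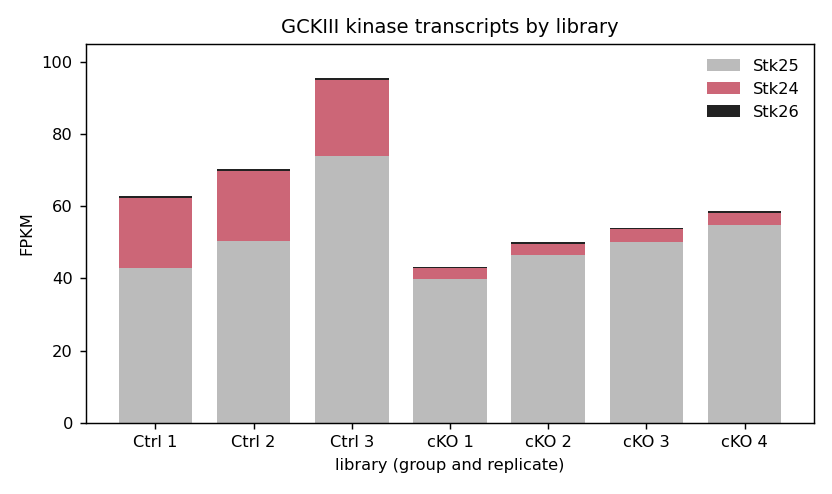
FPKM of Stk25, Stk24 and Stk26 stacked for each of the 7 libraries. The Stk24 segment shrinks from between 19.4 and 21.0 FPKM in Ctrl to between 2.92 and 3.85 FPKM in cKO, and the Stk25 segment is tallest in Ctrl replicate 3 at 74.01 FPKM.

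STRIPAK scaffolds and adaptors tended to stand higher in cKO, and none passed the test. Of the 10, all were tested, 9 had a difference above 0 (all but Strn4, in each of the 21 alternatives as well), and the median was 0.29. Some of these alternatives, such as other filters and variance settings, leave a difference unchanged by design. For 5 of them Ctrl and cKO libraries were fully apart (Strn3, Slmap, Mob4, Pdcd10 and Fgfr1op2), all higher in cKO, where 5.62% of all genes were higher without overlap.

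Strn3 encodes striatin-3, one of the scaffolds on which the complex is built. It stood at 3.29, 3.70 and 3.43 FPKM in Ctrl replicates 1 to 3 and at 3.97, 4.93, 5.23 and 4.68 FPKM in cKO replicates 1 to 4. Every cKO library lay above every Ctrl library, with cKO replicate 1 closest to Ctrl (log2 difference 0.38, SE 0.12, 95% interval 0.10 to 0.67, limma adjusted p = 0.511). Its unadjusted p was 0.0142, and stayed under 0.05 in all 21 alternatives, with log2 differences of 0.29 to 0.46. The groups overlapped for the other striatins. Strn stood at 5.23 ± 1.02 and 5.83 ± 0.258 FPKM, and Strn4, the most abundant striatin, at 12.8 ± 0.446 and 11.9 ± 0.873 FPKM (Ctrl then cKO, SD, n = 3 and 4, as in all such pairs that follow).

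Slmap encodes the adaptor that links STRIPAK to phosphorylated MST1 and MST2. It stood at 7.22, 8.95 and 9.004 FPKM in Ctrl replicates 1 to 3 and at 9.69, 10.3, 10.4 and 10.9 FPKM in cKO replicates 1 to 4. The groups did not overlap, and Ctrl replicate 1 was lowest (log2 difference 0.29, SE 0.11, 95% interval 0.03 to 0.55, limma adjusted p = 0.541). Its partner Sike1 stood at 6.44 ± 1.56 and 7.15 ± 1.504 FPKM, with overlapping libraries.

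Pdcd10, the adaptor that holds GCKIII kinases to the striatins, was the most abundant of these adaptors. It stood at 27.1, 27.2 and 23.4 FPKM in Ctrl replicates 1 to 3 and at 27.3, 29.6, 41.9 and 41.7 FPKM in cKO replicates 1 to 4. The cKO group split into replicates 1 and 2, nearer to the Ctrl libraries, and replicates 3 and 4, well above them (log2 difference 0.41, SE 0.18, 95% interval -0.001 to 0.82, limma adjusted p = 0.554). Of its 50-base stretches, 18.9% also occur in the transcript of Gm14253. Fgfr1op2, another adaptor, was also uneven within cKO and stood at 22.7, 24.1 and 23.5 FPKM in Ctrl replicates 1 to 3 and at 24.4, 24.8, 36.4 and 29.4 FPKM in cKO replicates 1 to 4. cKO replicates 1 and 2 lay within 1 FPKM of Ctrl replicate 2 (log2 difference 0.27, SE 0.15, 95% interval -0.07 to 0.62, limma adjusted p = 0.627).

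Mob4, a MOB family protein bound by the striatins, stood at 13.3, 16.4 and 15.9 FPKM in Ctrl replicates 1 to 3 and at 16.9, 17.4, 21.2 and 18.9 FPKM in cKO replicates 1 to 4. The groups were separated by a narrow gap, between Ctrl replicate 2 and cKO replicate 1 (log2 difference 0.28, SE 0.12, 95% interval -0.0039 to 0.57, limma adjusted p = 0.554). Strip2 and Cttnbp2nl, the remaining adaptors, had the widest intervals of this role. Strip2 stood at 0.976 ± 0.385 and 1.49 ± 0.599 FPKM, and Cttnbp2nl at 2.76 ± 0.475 and 4.07 ± 1.09 FPKM, with overlapping groups for both.

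The PP2A subunits of STRIPAK were among the most abundant members, and the groups overlapped for all 3. Ppp2ca, which encodes the alpha catalytic subunit, ranked first of the 47 and stood at 93.99, 85.7 and 99.7 FPKM in Ctrl replicates 1 to 3 and at 93.5, 91.7, 114 and 117 FPKM in cKO replicates 1 to 4. Replicates 3 and 4 of cKO were highest, and replicates 1 and 2 lay inside the Ctrl range (log2 difference 0.15, SE 0.14, 95% interval -0.16 to 0.47, limma adjusted p = 0.758). The beta catalytic subunit gene Ppp2cb stood at 33.4 ± 5.41 and 31.2 ± 2.54 FPKM, and the scaffold subunit gene Ppp2r1a at 62.5 ± 8.64 and 59.5 ± 4.85 FPKM. Ppp2cb made up 26.4 ± 3.60% of the catalytic subunit FPKM in Ctrl and 23.2 ± 2.65% in cKO (exact permutation p = 0.286). Of the 7053 50-base stretches in transcripts of Ppp2ca, 43.2% occur in transcripts of other genes, mostly 9430098F02Rik. The gene length behind its FPKM was only 1930 bases, so this share need not hold for the sequence that was counted.

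All 7 members of the Hippo core had a log2 difference above 0, as did 48.7% of all genes, with a median of 0.29, and 4 of the 7 (Stk3, Lats1, Mob1a and Mob1b) were higher in cKO without overlap, as were 5.62% of all genes. None passed the test over all genes (limma adjusted p between 0.475 and 0.927). The sign of 6 of the 7 was the same in all 21 alternatives. Not all of these could turn a sign, as other filters and variance settings leave a log2 difference unchanged. The replicate block gives the same differences as leaving out cKO replicate 4. Lats2 was the exception, below 0 with array weights and without Ctrl replicate 3 or cKO replicate 4, among others.

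Mob1b, which encodes one of the MOB1 co-activators of LATS kinases, had the smallest p of the members after Stk24. Mob1b (gene ID 68473, chromosome 5, 88868730 to 88906314 on the plus strand of GRCm39) stood at 8.37, 10.03 and 10.4 FPKM in Ctrl replicates 1 to 3 and at 12.2, 13.1, 13.2 and 14.8 FPKM in cKO replicates 1 to 4. Every cKO library lay above every Ctrl library (log2 difference 0.46, SE 0.12, 95% interval 0.19 to 0.73, limma adjusted p = 0.475). Its unadjusted p was 0.00431 and stayed under 0.05 in all 21 alternatives, where the log2 difference lay at 0.37 to 0.54.

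Mob1a, its close paralog, (gene ID 232157, chromosome 6, 83303016 to 83319794 on the plus strand of GRCm39) was more abundant and stood at 26.2, 24.7 and 27.2 FPKM in Ctrl replicates 1 to 3 and at 32.01, 30.97, 36.6 and 32.4 FPKM in cKO replicates 1 to 4. The groups were again apart, with Ctrl libraries close together and cKO replicate 3 highest (log2 difference 0.33, SE 0.10, 95% interval 0.10 to 0.57, limma adjusted p = 0.511). Its unadjusted p was 0.0115. Mob1b made up 26.9 ± 2.44% of the summed MOB1 FPKM in Ctrl and 28.8 ± 2.21% in cKO, and the groups overlapped (exact permutation p = 0.343).

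Lats1 (gene ID 16798, chromosome 10, 7556964 to 7592225 on the plus strand of GRCm39), which encodes a kinase of YAP, stood at 9.96, 11.1 and 11.5 FPKM in Ctrl replicates 1 to 3 and at 12.2, 13.2, 14.4 and 13.6 FPKM in cKO replicates 1 to 4. The libraries did not overlap, and the gap between Ctrl replicate 3 and cKO replicate 1 was under 1 FPKM (log2 difference 0.29, SE 0.10, 95% interval 0.05 to 0.53, limma adjusted p = 0.524). Lats2, often described as a target of YAP itself, was less abundant by FPKM, at 2.62 ± 0.361 and 2.89 ± 0.918 FPKM, with overlapping groups.

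Stk3, which encodes MST2, was the least abundant core member and stood at 0.818, 1.12 and 0.871 FPKM in Ctrl replicates 1 to 3 and at 1.45, 1.38, 1.35 and 1.44 FPKM in cKO replicates 1 to 4. The cKO libraries lay close together, above all Ctrl libraries (log2 difference 0.41, SE 0.15, 95% interval 0.06 to 0.76, limma adjusted p = 0.524). Stk4, which encodes MST1 and is also abundant in lymphocytes, stood at 10.4 ± 1.90 and 12.5 ± 1.59 FPKM with overlapping groups. It was highest in cKO replicates 3 and 4, at 14.2 and 13.1 FPKM, followed by Ctrl replicate 1 at 12.6 FPKM. The summed markers of T cells and innate lymphoid cells stood at 539, 663 and 1049 FPKM in these libraries, in the same order. The part of those cells in Stk4 was not tested. Sav1, the scaffold of MST1 and MST2, stood at 8.15 ± 0.824 and 9.32 ± 0.643 FPKM. On either strand, Sav1 shares 52.0% of its 50-base stretches with transcripts of Atl1, and Lats2 43.3% with Gm49361. Whether this touches their values depends on how reads were counted, which is not known.

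**Figure D3:**
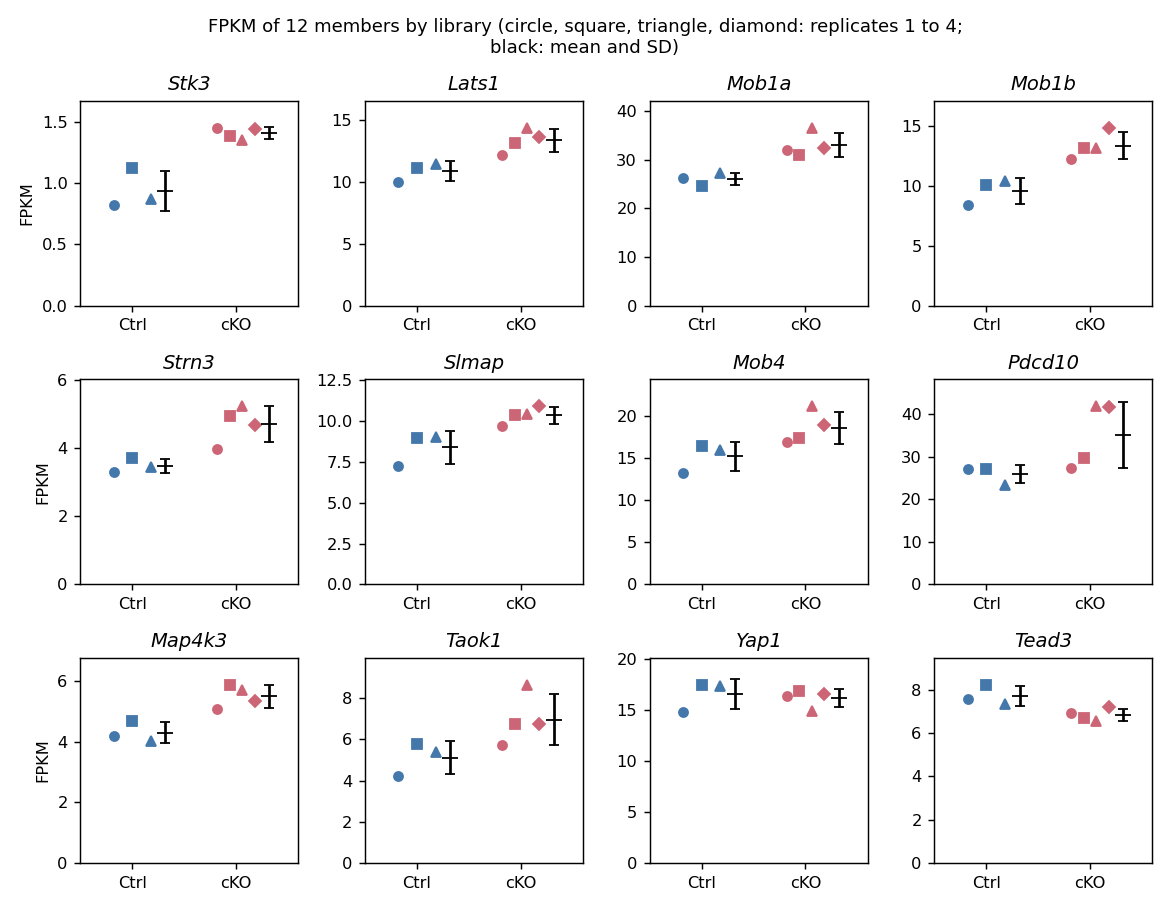
FPKM of 12 members in each Ctrl (blue) and cKO (red) library, with the mean and SD in black and each vertical axis starting at 0. Groups are apart for Stk3, Lats1, Mob1a, Mob1b, Strn3, Slmap, Mob4, Pdcd10, Map4k3 and Tead3, and overlap for Taok1 and Yap1.

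Of the 4 core members whose groups did not overlap, 3 have a promoter in the RefSeq table (Stk3 does not), and these are shown beside that of Yap1, to set the letters before their starts against the values above. They are the 300 bases from 250 before to 50 after a RefSeq start on GRCm38.p6, and capitals mark matches to GGAATG (the core letters of a TEAD site), CCGGAAG (ETS) or CCAAT (NF-Y) on either strand. The windows are chr6:83325789-83326088 (plus strand) for Mob1a, chr5:88720621-88720920 (plus strand) for Mob1b, chr10:7680959-7681258 (plus strand) for Lats1 and chr9:8004547-8004846 (minus strand) for Yap1.
Mob1a: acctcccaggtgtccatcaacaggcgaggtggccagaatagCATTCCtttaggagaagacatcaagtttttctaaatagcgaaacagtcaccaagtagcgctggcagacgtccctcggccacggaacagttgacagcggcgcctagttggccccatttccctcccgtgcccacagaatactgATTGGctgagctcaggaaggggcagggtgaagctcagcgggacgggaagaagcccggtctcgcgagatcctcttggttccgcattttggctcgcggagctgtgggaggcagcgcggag
Mob1b: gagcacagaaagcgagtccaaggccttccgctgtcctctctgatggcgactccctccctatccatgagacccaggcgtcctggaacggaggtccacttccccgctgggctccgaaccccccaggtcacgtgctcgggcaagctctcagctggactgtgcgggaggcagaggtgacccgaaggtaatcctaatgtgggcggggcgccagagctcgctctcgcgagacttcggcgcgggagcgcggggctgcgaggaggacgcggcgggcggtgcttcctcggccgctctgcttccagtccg
Lats1: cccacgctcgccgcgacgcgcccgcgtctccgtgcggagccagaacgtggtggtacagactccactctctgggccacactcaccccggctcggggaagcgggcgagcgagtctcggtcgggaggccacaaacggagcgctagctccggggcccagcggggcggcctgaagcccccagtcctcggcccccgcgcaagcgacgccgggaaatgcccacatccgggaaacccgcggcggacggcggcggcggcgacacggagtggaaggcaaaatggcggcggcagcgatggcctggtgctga
Yap1: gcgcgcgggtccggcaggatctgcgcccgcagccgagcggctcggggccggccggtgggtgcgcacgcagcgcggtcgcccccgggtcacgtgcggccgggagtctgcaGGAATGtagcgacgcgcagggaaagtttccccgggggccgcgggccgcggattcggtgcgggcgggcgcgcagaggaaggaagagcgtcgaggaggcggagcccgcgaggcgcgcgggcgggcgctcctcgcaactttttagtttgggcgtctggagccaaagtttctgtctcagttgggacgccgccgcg
The TEAD letters occurred in this window of Mob1a and of Yap1, and none of the 3 motifs in that of Mob1b or Lats1. The table held 48 promoters of 40 members; those of Stk24, Stk3, Sike1, Map4k4, Ppp2cb, Tead1 and Tead4 were not among them. The TEAD letters were found for 11 of the 40 members (27.5%), and in 27.1% of their promoters, against 14.7% of 32817 promoters in all. The 11 were Amotl2, Lats2, Mob1a, Ptpn14, Sav1, Strn4, Tead3, Vgll4, Wwc2, Wwtr1 and Yap1, of which Mob1a alone was among the members at an unadjusted p under 0.05. The CCAAT letters stood in 33.3% of member promoters and 37.4% of all, and the ETS letters in 12.5% and 8.86%. Base composition differed as well, with a median GC content of 66.8% in member promoters and 52.7% in all. Such matches describe letters in a window and do not show binding.

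Of the TAO and MAP4K kinases, which act beside MST1 and MST2 in switching on LATS, 4 of 8 stood higher and 4 lower in cKO, with a median of -0.014; the split was 5 and 3 after rescaling to TPM and 2 and 6 with the length dependence taken out. Map4k3 stood at 4.18, 4.69 and 4.03 FPKM in Ctrl replicates 1 to 3 and at 5.07, 5.88, 5.71 and 5.33 FPKM in cKO replicates 1 to 4. All cKO libraries lay above the Ctrl libraries (log2 difference 0.32, SE 0.11, 95% interval 0.07 to 0.57, limma adjusted p = 0.516). Taok1 stood at 4.22, 5.76 and 5.39 FPKM in Ctrl replicates 1 to 3 and at 5.71, 6.73, 8.67 and 6.76 FPKM in cKO replicates 1 to 4. Here cKO replicate 1 lay inside the Ctrl range and cKO replicate 3 was highest (log2 difference 0.41, SE 0.16, 95% interval 0.03 to 0.78, limma adjusted p = 0.542).

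Map4k2 went the other way and stood at 2.84, 2.66 and 2.76 FPKM in Ctrl replicates 1 to 3 and at 2.02, 2.56, 2.51 and 2.24 FPKM in cKO replicates 1 to 4. Its libraries did not overlap and were lower in cKO, as were those of 4.51% of all genes, but the fit gave no call (log2 difference -0.21, SE 0.12, 95% interval -0.49 to 0.08, limma adjusted p = 0.654). Taok3, the most abundant kinase of this role, stood at 10.7, 10.7 and 13.1 FPKM in Ctrl replicates 1 to 3 and at 13.8, 12.8, 9.26 and 12.8 FPKM in cKO replicates 1 to 4. The groups overlapped, with cKO replicate 3 lowest of all and cKO replicate 1 highest (log2 difference 0.07, SE 0.16, 95% interval -0.29 to 0.43, limma adjusted p = 0.921). Taok2 stood at 7.42 ± 1.35 and 6.52 ± 0.182 FPKM, Map4k4 at 11.5 ± 1.27 and 11.2 ± 0.387 FPKM, and Map4k5 at 1.88 ± 0.0686 and 1.97 ± 0.704 FPKM.

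Map4k1 encodes HPK1, a kinase known from blood cells. It stood at 3.35, 1.63 and 1.08 FPKM in Ctrl and 0.884, 1.56, 2.18 and 2.17 FPKM in cKO. It was highest in Ctrl replicate 1 and lowest in cKO replicate 1, the libraries in which the summed T cell and innate lymphoid markers were highest and lowest, at 1049 and 275 FPKM; their part in Map4k1 was not tested. Its 95% interval, from -0.95 to 0.66, was the widest among the kinases, and its sign turned without Ctrl replicate 1, to 0.21, and without cKO replicate 1, to 0.063.

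Among the upstream scaffolds and YAP binders, 5 of 7 were tested, and all 5 had overlapping groups and differences above 0 (median 0.10). With the length dependence taken out, Wwc1 and Amotl2 lay below 0. Wwc1, which encodes the scaffold KIBRA and was the most abundant, stood at 32.4, 33.95 and 29.3 FPKM in Ctrl replicates 1 to 3 and at 29.97, 29.01, 35.9 and 34.1 FPKM in cKO replicates 1 to 4. Its libraries were mixed between the groups (log2 difference 0.01, SE 0.12, 95% interval -0.26 to 0.28, limma adjusted p = 0.983). Nf2, which encodes merlin, an activator of LATS at the membrane, stood at 15.3 ± 1.19 and 16.5 ± 2.33 FPKM. The angiomotin genes Amot and Amotl2, whose proteins hold YAP in the cytoplasm, stood at 2.74 ± 0.407 and 3.41 ± 0.939 FPKM and at 3.03 ± 0.350 and 3.07 ± 0.357 FPKM. Amotl2 is itself widely used as a readout of YAP activity. Wwc2 stood at 0.579 ± 0.230 and 0.875 ± 0.412 FPKM. Amotl1, with 3 to 30 reads per library, stood at 0.0394 to 0.128 FPKM in Ctrl and 0.0171 to 0.126 FPKM in cKO (exact permutation p = 0.457). Ptpn14, a phosphatase that binds YAP, had 5 to 15 reads per library and stood at 0.0449 to 0.0778 and 0.0300 to 0.0620 FPKM (exact permutation p = 0.171).

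The NDR kinases are relatives of LATS that MST3 is known to phosphorylate. Stk38, which encodes NDR1, stood at 16.7, 16.6 and 24.2 FPKM in Ctrl replicates 1 to 3 and at 15.7, 18.1, 18.9 and 20.6 FPKM in cKO replicates 1 to 4. As for Stk25, Ctrl replicate 3 was highest and the groups overlapped (log2 difference -0.05, SE 0.16, 95% interval -0.42 to 0.33, limma adjusted p = 0.952); the sign turned without that library, to 0.13, without cKO replicate 1, to 0.024, and after rescaling to TPM, to 0.041. Stk38l, which encodes NDR2, stood at 1.92 ± 0.343 and 1.92 ± 0.292 FPKM.

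Of the 5 transcriptional effectors tested, 2 stood higher and 3 lower in cKO, with a median of -0.030; the split was 4 and 1 after rescaling to TPM and without cKO replicate 3, and 3 and 2 after quantile normalization. Yap1 (gene ID 22601, chromosome 9, 7932000 to 8004890 on the minus strand of GRCm39) stood at 14.8, 17.5 and 17.3 FPKM in Ctrl replicates 1 to 3 and at 16.3, 16.8, 14.9 and 16.6 FPKM in cKO replicates 1 to 4. The 4 cKO libraries lay within the Ctrl range (log2 difference -0.03, SE 0.11, 95% interval -0.27 to 0.21, limma adjusted p = 0.949), and the interval corresponds to between 0.828 and 1.16 times the Ctrl level on that scale. Its sign changed between alternatives, from -0.11 to 0.055.

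Wwtr1, which encodes TAZ, was read between 2 and 23 times per library. It stood at 0.0215, 0.112 and 0.0904 FPKM in Ctrl replicates 1 to 3 and at 0.0941, 0.136, 0.331 and 0.150 FPKM in cKO replicates 1 to 4. The groups overlapped, with cKO replicate 3 highest (exact permutation p = 0.114), and Wwtr1 made up at most 2.18% of the summed FPKM of Yap1 and Wwtr1. TAZ is also expressed in fibroblasts, whose 8 markers summed to 3.78, 1.51 and 7.72 FPKM in Ctrl and 1.34, 0.912, 2.42 and 8.79 FPKM in cKO. That sum was highest in cKO replicate 4 and Wwtr1 in cKO replicate 3; their part in Wwtr1 was not tested.

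Of the TEAD factors through which YAP binds DNA, Tead3 was the most abundant and stood at 7.60, 8.24 and 7.36 FPKM in Ctrl replicates 1 to 3 and at 6.95, 6.71, 6.55 and 7.20 FPKM in cKO replicates 1 to 4. All cKO libraries lay below all Ctrl libraries, by a small gap between Ctrl replicate 3 and cKO replicate 4 (log2 difference -0.16, SE 0.10, 95% interval -0.39 to 0.06, limma adjusted p = 0.649). Tead1 stood at 1.65 ± 0.310 and 2.001 ± 0.457 FPKM, and Tead2 at 0.651 ± 0.120 and 0.792 ± 0.122 FPKM. Tead4, with 1 to 20 reads per library, ranged from 0.0194 to 0.402 FPKM in Ctrl and from 0.0934 to 0.238 FPKM in cKO (exact permutation p = 0.971). Vgll4, a competitor of YAP for TEAD, stood at 2.54 ± 0.228 and 2.49 ± 0.870 FPKM; its cKO libraries split, with replicates 1 and 2 at 3.33 and 3.16 FPKM and replicates 3 and 4 at 1.69 and 1.80 FPKM.

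The libraries of a group were not alike across members. Relative to the Ctrl mean on the scale log2(FPKM + 0.5), the median over the 7 core members was -0.12, 0.067 and 0.035 in Ctrl and 0.16, 0.25, 0.39 and 0.34 in cKO. For the 10 STRIPAK scaffolds and adaptors it was -0.12, 0.078 and 0.022 in Ctrl and 0.091, 0.19, 0.50 and 0.32 in cKO. In both roles Ctrl replicate 1 was lowest and cKO replicate 3 highest, and cKO replicate 1 was nearest to the Ctrl libraries. Over all genes tested these medians lay between -0.012 and 0.015.

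Within cKO, replicates 1 and 2 stood apart from replicates 3 and 4 over the whole libraries. Chi-square per degree of freedom was 19.5 between cKO replicates 1 and 2 and 26.8 between replicates 3 and 4. Across these pairs it was 50.9 to 73.5, and between Ctrl libraries 35.3 to 50.4. Between Ctrl and cKO libraries it ran from 34.0 (Ctrl replicate 2 with cKO replicate 3) to 71.4 (Ctrl replicate 3 with cKO replicate 3). This measure is summed over the reads of all genes, so genes with many reads weigh most. Cell markers and members such as Pdcd10, Ppp2ca and Vgll4, which enter it, showed the same split. The share of all genes split this way was not counted. Of the 10 small-intestinal markers, 3 were lower in replicates 3 and 4 than in replicates 1 and 2 (Lyz1, Defa24 and Defa17, products of Paneth cells), and 4 were higher (Alpi, Apoa4, Fabp2 and Sis, genes of absorptive enterocytes). Lyz1 stood at 2277, 2628 and 3042 FPKM in Ctrl and at 5049, 4577, 1207 and 1008 FPKM in cKO. Defa24 stood at 4549.6, 9439 and 16415 FPKM in Ctrl and at 9268, 8484, 2125 and 2033 FPKM in cKO. The summed markers of T cells and innate lymphoid cells stood at 1049, 426 and 477 FPKM in Ctrl and at 275, 322, 539 and 663 FPKM in cKO. These markers were set beside the members after their values were seen, and their part in the members' values was not tested.

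**Figure D4:**
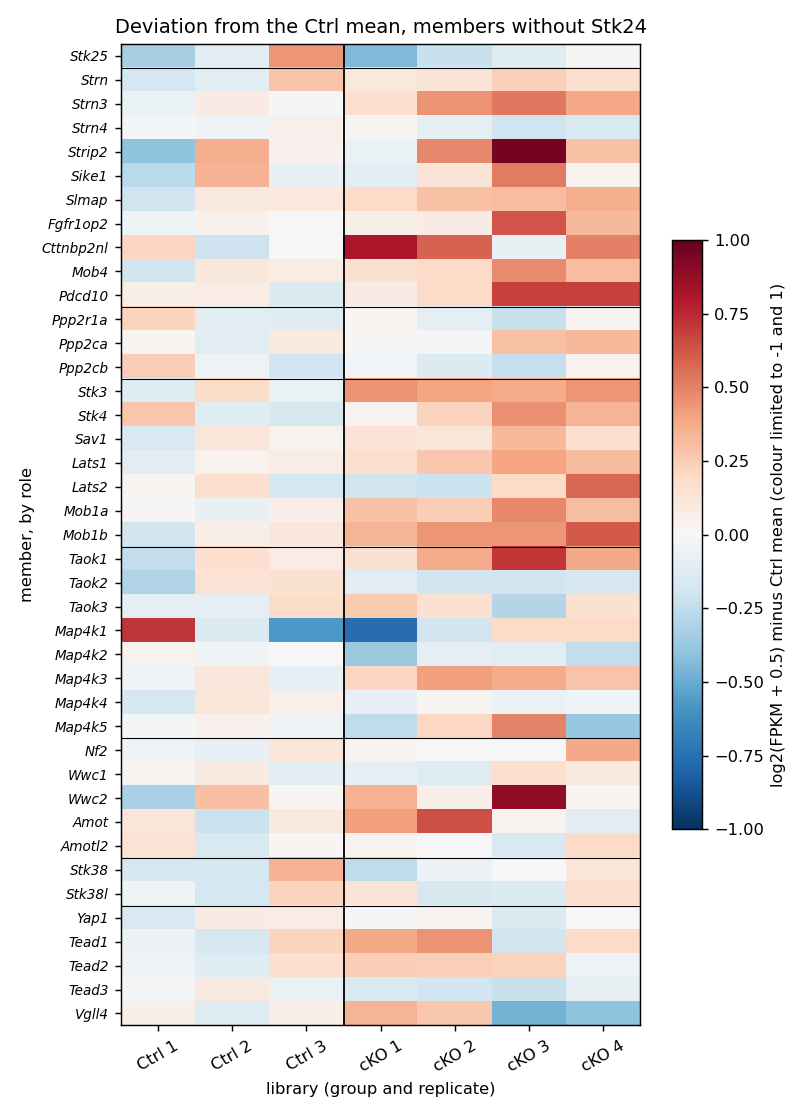
Deviation of each tested member other than Stk24 from its Ctrl mean in the 7 libraries, on the scale log2(FPKM + 0.5), with members grouped by role and colours limited to -1 and 1. The core members Mob1a, Mob1b, Lats1 and Stk3 are red in all 4 cKO libraries, and Pdcd10 mainly in replicates 3 and 4.

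Members were long genes, with a median length of 5168 bases among those tested against 3138 bases over all genes tested. With the length dependence of every library taken out, the median difference over the members was 0.086 in place of 0.15, and 24 members lay above 0 and 18 below. The members at an unadjusted p under 0.05 and higher were then Mob1b, Mob1a, Pdcd10, Strn3 and Mob4. Mob1a and Mob1b, of 3430 and 3171 bases, kept log2 differences of 0.33 and 0.47. Taok1, Stk3 and Slmap, of 13151, 11279 and 11453 bases, stood at 0.29, 0.30 and 0.18, with unadjusted p of 0.091, 0.0767 and 0.112, and Lats1 at 0.21 (unadjusted p = 0.0605).

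**Figure D5:**
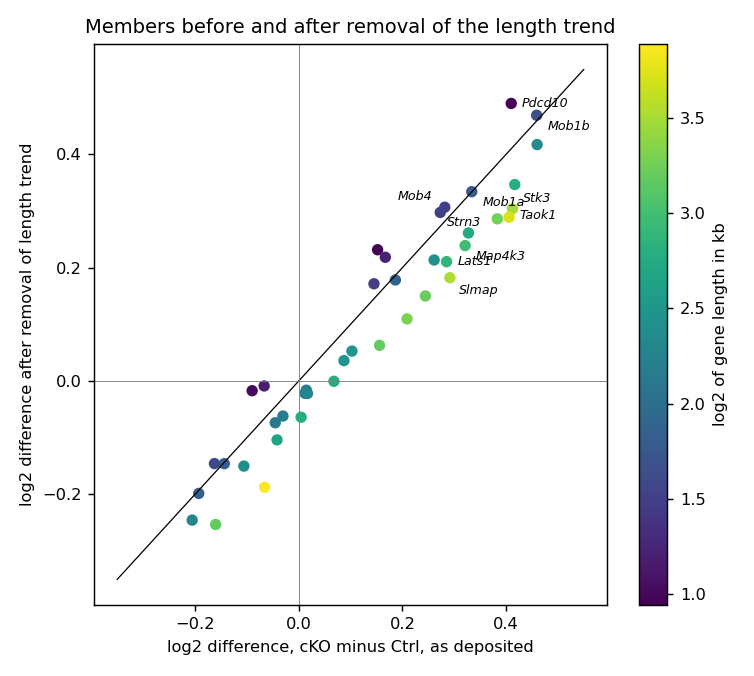
Log2 difference of the 41 tested members other than Stk24 as deposited (horizontal) and with the length dependence of every library taken out (vertical), coloured by gene length. Points of long genes lie below the diagonal, and the named genes are those at an unadjusted p under 0.05 on either axis.

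Of 49 further genes of the pathway, also listed for their role with earlier results known, 41 were tested and 0 passed in limma. At an unadjusted p under 0.05, 1 was higher (Cab39l) and 3 lower (Scrib, Crb3 and Mob2), beside 4.24% and 4.73% of all genes, and the median log2 difference was -0.017. Cab39l encodes a member of the MO25 family, proteins that bind STE20-type kinases such as MST3, and stood at 9.02 ± 0.522 and 11.4 ± 1.26 FPKM. Scrib and Crb3 encode cell polarity proteins that act upstream of LATS. Scrib stood at 13.9 ± 1.30 and 10.7 ± 0.833 FPKM, and Crb3 at 57.001 ± 1.83 and 43.2 ± 7.32 FPKM, without overlap of the groups for these 3 genes (over all genes, 5.62% were higher and 4.51% lower without overlap). Mob2, a partner of NDR kinases, stood at 12.6 ± 1.32 and 10.3 ± 1.17 FPKM. Their adjusted p lay between 0.511 and 0.554.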

How the data were processed

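RNA-seq values of 7 libraries were analysed, 3 Ctrl and 4 cKO. The authors deposited 1 FPKM value (fragments scaled to gene length and library size) per gene and library, for 46671 genes. Reads had been aligned with HISAT2, per the submitters' processing notes; nothing in the labels states the HISAT2 version, the counter, its use of strand or the annotation release. Whether reads of overlapping antisense genes were separated is therefore not known. The chromosome accessions in the deposited table are those of GRCm39. Multiplied by gene length, 100% of the deposited FPKM above 0 came out as whole reads (within 0.01), so reads could be recovered. The library sizes behind the deposited FPKM were 0.891 to 1.10 times the recovered totals. Pairs of libraries differed by at least 19.5 in chi-square per degree of freedom, so none repeats another.

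The test covered the 13057 genes whose mean reached 0.5 FPKM. Ctrl and cKO entered a limma fit (version 3.58.1, R 4.3.3; lmFit, eBayes with trend, no covariate) on log2(FPKM + 0.5), which understates changes of low genes. P-values are 2-sided, with Benjamini-Hochberg adjustment over all genes tested and a threshold of 0.05. Single values were compared by an exact permutation test over the 35 splits. Its smallest 2-sided p is 0.0571, so it cannot fall below 0.05. The fit was tested on simulated data. Members, roles and lists were chosen with earlier results of these data known. Values in each library are given for Stk24, Stk25, Stk26, Yap1, Wwtr1, the most abundant member of each role, and members with an unadjusted p under 0.05 or libraries that do not overlap. Alternatives were pseudocounts of 0.1 and 1, no filter or at least 1 FPKM, rescaling to a common sum (TPM), per recovered read or by a second median of ratios, quantile normalization, other variance settings, array weights, a fit of each library on gene length whose trend was subtracted, voom on the recovered reads (at least 10 in 3 libraries), the replicate number as a block, and leaving out each library. Promoter sequences (250 bases before to 50 after a start) come from RefSeq, and transcript sequences for shared 50-base stretches from GENCODE. Both are on an earlier build than the table, so that their coordinates were not mixed with it. Shared stretches were taken from all protein-coding transcripts of a member and matched on both strands, so they include antisense overlaps and sequence that may not have been counted.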

Additional observations from a re-analysis of the deposited data

Results flagged for a closer look

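Among the 47 members, the 4 cKO libraries were checked for a library far from the others; groups of 3 are too small for this check, and chance flags about 1 in 20 groups. It flagged 2 members, both in cKO replicate 4. Nf2 stood at 20.03 FPKM there, above the other 3 cKO libraries, which lay between 15.2 and 15.6 FPKM. Tead2 stood at 0.609 FPKM there, below the others, which lay between 0.847 and 0.859 FPKM; it was read between 20 and 36 times per library.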

How the results depend on the processing

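Over the 21 alternatives, Stk24 was the member called in each except the fit with the replicate block, and its log2 difference lay between -2.59 and -2.28. The count of called genes, 4 as deposited, was 1 with a pseudocount of 0.1, with no filter, with a mean of at least 1 FPKM and after removal of the length trend, 2 with voom, and between 1 and 7 when 1 library was left out (7 without cKO replicate 1, 2 without Ctrl replicate 1, 1 without any other). With the replicate number as a replicate block, in which cKO replicate 4 has no partner and drops out, 0 genes and 0 members were called in limma (402 genes higher and 650 lower at an unadjusted p under 0.05), and Stk24 stood at -2.44 with an adjusted p of 0.137; Lats2, Wwc1 and Amotl2 lay below 0 there. No label pairs the libraries, and the replicate numbers follow the sample titles, while the deposited columns are numbered otherwise. Deviations of same-numbered libraries correlated at 0.12, -0.087 and -0.13. The column numbers skip a Ctrl number, and matched in that order, Ctrl replicates 1, 2 and 3 fall beside cKO replicates 1, 3 and 4. Those pairs correlated at 0.12, 0.31 (the highest of all) and 0.040. A block on that order was not fitted, and whether either numbering reflects a pairing is not known. The members at an unadjusted p under 0.05, 9 in either direction, were 14 with TPM, and the median difference over members was 0.23 with TPM and 0.086 after removal of the length trend. Of the 42 tested members, 14 changed sign in at least 1 alternative; their differences as deposited lay between -0.19 (Stk25) and 0.087 (Lats2). Yap1 stood at 0.055 with TPM and 0.0034 after quantile normalization, and between -0.11 and 0.0096 when 1 library was left out. Wwc1 stood at -0.076 with array weights, -0.022 after removal of the length trend and -0.016 with the replicate block, and between -0.045 and 0.060 with 1 library left out. Stk38 stood at 0.041 with TPM and between -0.13 and 0.13, and Stk25 between -0.36 and 0.028, with 1 library left out. Taok3 stood at -0.00049 after removal of the length trend. For Tead4 the FPKM difference, 0.0035, lay between -0.074 and 0.12 with 1 library left out. The cause of these changes was not tested. A gene of 1 kb with 3 reads stood at 0.155 to 0.216 FPKM, which limits what can be said of Wwtr1, Amotl1, Ptpn14, Tead4 and Stk26.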
